A study of Arabidopsis thaliana with 6 samples.

Results

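The Calvin-Benson cycle and photorespiration were described here as 31 nuclear genes of the 32962 in the expression table, taken by gene identifier. The 13 genes of the Calvin-Benson cycle leave out Rubisco, and the other 18 belong to photorespiration. Both pathways run in green leaf cells. In the Calvin-Benson cycle, the chloroplast stroma turns the product of carbon dioxide fixation into triose phosphate and rebuilds the acceptor, ribulose bisphosphate. Photorespiration recovers carbon when Rubisco fixes oxygen in place of carbon dioxide: phosphoglycolate is dephosphorylated in the chloroplast, glycolate is oxidized in peroxisomes, glycine is turned into serine in mitochondria, and glycerate returns to the chloroplast.

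Messenger RNA was compared between EsANAC029-OE and Col-0 (wild type) Arabidopsis thaliana, with 3 libraries in each group. EsANAC029 encodes a NAC-family transcription factor from Elymus sibiricus, a grass, and the OE plants overexpress it. The promoter driving it and the number of lines are not stated. Plants of both groups were 25 days old and grew at 25 °C under 16 h light and 8 h dark. Whether the libraries of a group came from separate plantings is not stated, so p-values measure only the spread between these libraries. The libraries held 19608819 to 21715274 reads in genes, and EsANAC029-OE replicate 1 stood apart, with correlations of 0.691 to 0.734 with the Col-0 libraries over tested genes, against 0.857 to 0.899 for replicates 2 and 3. The tissue is labelled as seedlings, yet none of 7 root markers, among them PIN2, WER and CASP1, reached 1 FPKM in any library, and their summed level was 0.0619, 1.10 and 0.272 FPKM in EsANAC029-OE and 1.45, 0.948 and 0.152 FPKM in Col-0. Of 5 flower markers 1 reached 1 FPKM, SEP3 with 3.17 FPKM in EsANAC029-OE replicate 2. The 6 leaf cell type markers (ATML1, FDH, FAMA, MYB60, SUC2 and APL) are of cell types other than mesophyll. They summed to 197, 174 and 190 FPKM in EsANAC029-OE and 368, 360 and 411 FPKM in Col-0. Fold changes were negative in 6 of 6 (median log2 fold change −0.81) and none was called. In 4 of 6 every EsANAC029-OE library lay below every Col-0 library, against 20.3% of all tested genes. In FAMA and SUC2 the groups overlapped, and SUC2 in EsANAC029-OE replicate 1 (148 FPKM) lay above every Col-0 library. The part of these cell types in the results below was not tested. Levels are given in FPKM, fragments scaled to gene length and library size, so that levels of different genes can be set side by side. The library sizes carry a further scaling by the authors, of 1.06, 1.25 and 1.15 in EsANAC029-OE and 0.920, 0.883 and 0.872 in Col-0. This scaling lowers EsANAC029-OE levels relative to Col-0. In bulk RNA, fewer green cells and less RNA per green cell cannot be told apart.

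Most members of both pathways were at a lower level in EsANAC029-OE, by amounts that differed widely between its libraries, and a single member passed the test over all genes. Of the 31 genes 30 were tested, since PGLP1 did not reach 1 FPKM in 3 libraries. By limma on log2(FPKM + 1), 1 of 30 tested members, the transporter DiT1, was called lower at a Benjamini-Hochberg adjusted p under 0.05 and none was called higher, where 7.89% of the 17221 tested genes were called, 3.58% lower and 4.31% higher. At that threshold the share of members called was near the background. At an unadjusted p under 0.05, 23 of 30 were lower and 1 was higher, against 14.7% and 13.6% of all tested genes. In 27 of 30 members the 3 EsANAC029-OE values all lay below the 3 Col-0 values, against 20.3% of all tested genes, and in BASS6 alone they all lay above, as in 19.6% of all tested genes. The median log2 fold change (EsANAC029-OE over Col-0) was −1.58 over 13 Calvin-Benson genes and −1.34 over 17 photorespiration genes, where the median over all tested genes was −0.01. With library totals as the only scaling, the median over all genes shifts by 0.32 in log2, and the medians of the pathways become −1.22 and −0.97. In the Calvin-Benson cycle adjusted p ran from 0.0782 to 0.307, so no member passed, while 11 of 13 had an unadjusted p under 0.05.

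**Figure D1:**
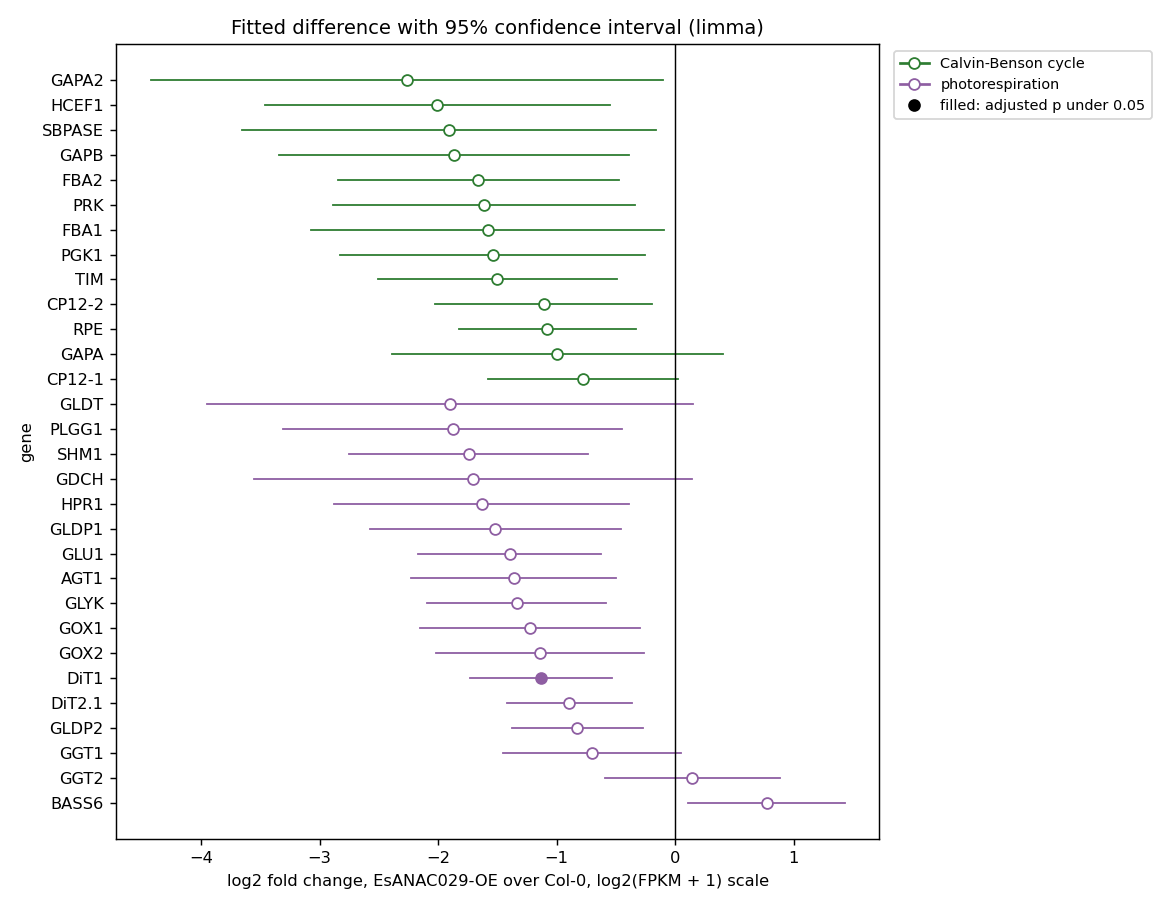
Fitted log2 fold change of each tested member, EsANAC029-OE over Col-0 on the log2(FPKM + 1) scale, with its 95% confidence interval from limma; genes run down the page within each pathway, and a filled point marks an adjusted p under 0.05. All 13 Calvin-Benson points and 15 of 17 photorespiration points lie left of 0, and DiT1 has the only filled point.

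The EsANAC029-OE libraries differed among themselves, and standard errors of the members ran from 0.219 to 0.892 on the log2 scale. Taking each EsANAC029-OE library against the Col-0 mean, the Calvin-Benson genes had medians of −2.62, −1.37 and −0.66 for replicates 1, 2 and 3. The corresponding medians of the photorespiration genes were −1.81, −1.30 and −0.57. Replicate 1 was the lowest EsANAC029-OE library in 27 of 30 members, as in 41% of all tested genes. In the same 27 replicate 3 was also the highest, an order held by 21% of all tested genes. The members took 0.809%, 1.65% and 2.54% of all reads in EsANAC029-OE replicates 1, 2 and 3, against 3.24%, 2.88% and 3.04% in the Col-0 libraries. Without EsANAC029-OE replicate 1, 7 Calvin-Benson genes (GAPA2, GAPB, SBPASE, FBA2, HCEF1, TIM and RPE) and 7 photorespiration genes (SHM1, HPR1, GLYK, PLGG1, GLU1, DiT1 and DiT2.1) were called lower, against 9.51% of the genes tested in that fit. Without replicate 3, PRK and 8 photorespiration genes (GOX1, AGT1, GLDP1, GLDP2, SHM1, GLYK, GLU1 and DiT1) were called lower, against 3.52% of genes. Without replicate 2 no member was called, and 0.419% of all genes were called lower; the same held for the members without any 1 Col-0 library.

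The medians of the pathways lay furthest apart in replicate 1. The Calvin-Benson median minus the photorespiration median was −0.81 there, against −0.07 and −0.09 for replicates 2 and 3, and it was −0.25 in the fit. The SD over single members was 0.895 and 1.36 in replicate 1, 0.274 and 0.580 in replicate 2, and 0.276 and 0.334 in replicate 3, for the Calvin-Benson cycle first and photorespiration second. No test was made of the difference between the pathways. Within photorespiration, the 5 mitochondrial members had a median log2 fold change of −1.71, the 6 tested chloroplast members −1.23 and the 6 peroxisomal members −1.18. Against the Col-0 mean, these medians were −2.37, −1.58 and −1.79 in EsANAC029-OE replicate 1, in the same order. They were −1.23, −1.32 and −1.29 in replicate 2, and −0.54, −0.73 and −0.48 in replicate 3. The mitochondrial median was thus the lowest in replicate 1 alone.

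**Figure D2:**
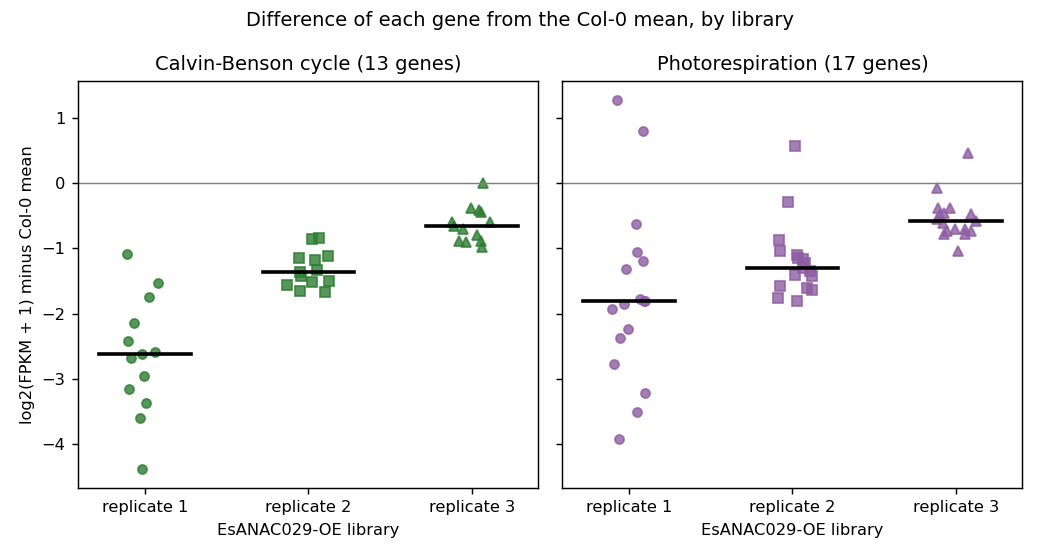
Difference of each tested member from the Col-0 mean on the log2(FPKM + 1) scale, by EsANAC029-OE library, with 13 Calvin-Benson genes at left and 17 photorespiration genes at right; each point is a gene and each bar a median. The medians are −2.62, −1.37 and −0.66 for the Calvin-Benson cycle and −1.81, −1.30 and −0.57 for photorespiration.

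In the reduction step of the Calvin-Benson cycle, PGK1 (phosphoglycerate kinase, AT3G12780) phosphorylates phosphoglycerate, and chloroplast glyceraldehyde-3-phosphate dehydrogenase, built of A and B subunits, reduces the product. In library order, PGK1 had 212, 518 and 828 FPKM in EsANAC029-OE and 1334, 1245 and 1357 FPKM in Col-0. The B subunit gene GAPB (AT1G42970, TAIR10 chromosome 1, 16127353 to 16129895) was at 152, 433 and 782 FPKM in EsANAC029-OE and at 1388, 1252 and 1452 FPKM in Col-0. In both genes every EsANAC029-OE library lay below every Col-0 library, and neither passed the test (limma adjusted p = 0.124 for PGK1 and 0.111 for GAPB). The A subunit is encoded by GAPA (AT3G26650, chromosome 3, 9794862 to 9797045) and GAPA2 (AT1G12900, chromosome 1, 4392438 to 4394454), whose longest coding sequences are 76.7% identical. GAPA2 had the largest fitted difference of the members, with 47.2, 352 and 542 FPKM in EsANAC029-OE and 1038, 843 and 1165 FPKM in Col-0 (log2 fold change −2.26, SE 0.892, 95% interval −4.42 to −0.11, limma adjusted p = 0.161). That rank rests on EsANAC029-OE replicate 1: without it GAPA2 had −1.20, behind SHM1 (−1.43), HCEF1 (−1.32), GAPB (−1.23) and PLGG1 (−1.21). GAPA was the only Calvin-Benson gene whose groups overlapped, with 299.8, 744 and 1330 FPKM in EsANAC029-OE and 1357, 1240 and 1402 FPKM in Col-0. Its EsANAC029-OE replicate 3 reached the Col-0 range while replicate 1 lay far under it (log2 fold change −0.996, SE 0.577, limma adjusted p = 0.307). The ratio of GAPA to GAPA2 within a library, which no library scaling can move, was 6.35, 2.11 and 2.46 in EsANAC029-OE and 1.31, 1.47 and 1.20 in Col-0. The ratio of both A genes to GAPB was 2.28, 2.53 and 2.39 in EsANAC029-OE and 1.73, 1.66 and 1.77 in Col-0. In both ratios the groups did not overlap; with 3 libraries against 3 the exact permutation test gave p = 0.1, the smallest it allows.

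Triose phosphates are then interconverted and joined. The chloroplast triose phosphate isomerase TIM (AT2G21170) had the smallest adjusted p of the Calvin-Benson cycle, at 73.9, 176 and 213 FPKM in EsANAC029-OE and 393, 379 and 431 FPKM in Col-0 (log2 fold change −1.50, SE 0.417, limma adjusted p = 0.0782). The chloroplast aldolases FBA1 and FBA2, 82.9% identical in coding sequence, averaged 113 ± 84.3 and 526 ± 281 FPKM in EsANAC029-OE and 271 ± 18.7 and 1496 ± 139 FPKM in Col-0 (mean ± SD, n = 3 each). FBA2 was therefore the most abundant transcript of the cycle in Col-0, and in EsANAC029-OE it was exceeded by GAPA and CP12-1. HCEF1, the chloroplast fructose-1,6-bisphosphatase (AT3G54050, chromosome 3, 20016837 to 20018822), was at 57.2, 190 and 304 FPKM in EsANAC029-OE and 606, 566 and 642 FPKM in Col-0. SBPASE, the sedoheptulose-1,7-bisphosphatase (AT3G55800), was at 40.3, 185 and 309 FPKM in EsANAC029-OE and 504, 461 and 542 FPKM in Col-0. These bisphosphatases, which catalyse irreversible steps and are activated by light through thioredoxin, ranked after GAPA2 in the size of their difference (log2 fold change −2.01, limma adjusted p = 0.0921 for HCEF1, and −1.91, adjusted p = 0.149 for SBPASE). Without EsANAC029-OE replicate 1 HCEF1 (−1.32) exceeded GAPA2 (−1.20), and SBPASE (−1.06) came after GAPB (−1.23), GAPA2, FBA2 (−1.19) and PRK (−1.08).

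In the regeneration of ribulose bisphosphate, RPE (ribulose-phosphate epimerase, AT5G61410) and PRK (phosphoribulokinase, AT1G32060) act in turn. RPE was at 208, 275 and 399 FPKM in EsANAC029-OE and 610, 582 and 609.5 FPKM in Col-0 (log2 fold change −1.08, SE 0.308, limma adjusted p = 0.0831). PRK was at 106, 233 and 453 FPKM in EsANAC029-OE and 710, 650 and 704 FPKM in Col-0 (log2 fold change −1.61, SE 0.525, limma adjusted p = 0.111). The small protein CP12 holds GAPDH and PRK together in an inactive complex in the dark. CP12-1 (AT2G47400, chromosome 2, 19446730 to 19447642) had the smallest fitted difference of the cycle, at 568, 666 and 927 FPKM in EsANAC029-OE and 1199, 1210 and 1225 FPKM in Col-0 (log2 fold change −0.78, SE 0.333, limma adjusted p = 0.188). Without EsANAC029-OE replicate 1 GAPA was smaller, at −0.42 against −0.62 for CP12-1. CP12-2 was at 155, 237 and 388 FPKM in EsANAC029-OE and 551, 586 and 448 FPKM in Col-0 (limma adjusted p = 0.122). Both CP12 genes lay below Col-0 in every EsANAC029-OE library, while CP12-1 stood higher relative to GAPB and PRK but not to GAPA. The ratio of CP12-1 to GAPB was 3.74, 1.54 and 1.19 in EsANAC029-OE and 0.864, 0.966 and 0.844 in Col-0, and that of CP12-1 to PRK was 5.34, 2.86 and 2.05 in EsANAC029-OE and 1.69, 1.86 and 1.74 in Col-0. The groups did not overlap in either (exact permutation p = 0.1, the smallest possible). The ratio of CP12-1 to GAPA was 1.90, 0.896 and 0.696 in EsANAC029-OE and 0.883, 0.976 and 0.874 in Col-0, with overlap (exact permutation p = 0.8).

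**Figure D3:**
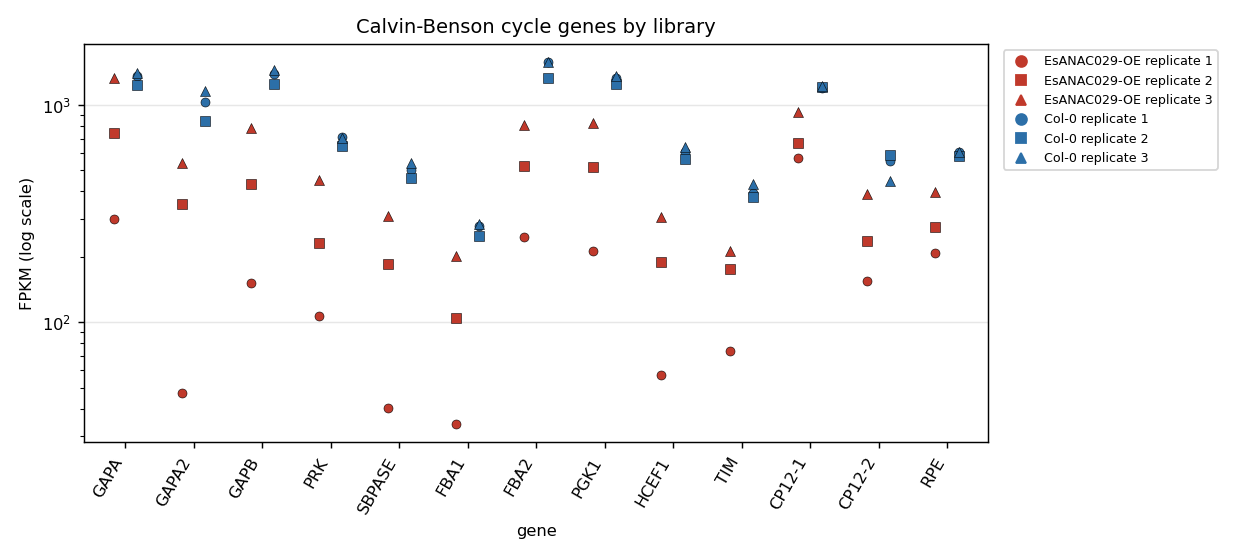
Level of the 13 Calvin-Benson genes in FPKM on a log axis, with EsANAC029-OE in red at left and Col-0 in blue at right of each gene and a marker shape for each replicate number. The Col-0 libraries lie close together, the EsANAC029-OE libraries are spread below them, and only in GAPA does an EsANAC029-OE library (1330 FPKM) reach the Col-0 range.

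Photorespiration starts in the chloroplast with PGLP1 (phosphoglycolate phosphatase, AT5G36700, chromosome 5, 14421182 to 14424610). The table listed it at 0, 0.0544 and 0.0210 FPKM in EsANAC029-OE and at 0.142, 0.101 and 0.0256 FPKM in Col-0, which is 0 to 6 reads. A copy of the locus, AT5G36790 (chromosome 5, 14480482 to 14483927), has a coding sequence 100% identical to it, so reads of this sequence cannot be assigned to either copy. The copy was at 0.107, 0.661 and 0.808 FPKM in EsANAC029-OE and at 69.4, 2.35 and 1.76 FPKM in Col-0. Col-0 replicate 1 carried almost all of that level, with 2820 reads against 89 and 66 in the other Col-0 libraries. Summed over both copies the log2 fold change was −2.54 (95% interval −5.49 to 0.42, limma adjusted p = 0.232). How multi-mapping reads were counted is not stated, and the level of PGLP1 cannot be read from these values.

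Glycolate leaves the chloroplast through PLGG1, which exchanges it for glycerate, and BASS6, a second glycolate exporter, and is oxidized by the peroxisomal glycolate oxidases GOX1 and GOX2. PLGG1 (AT1G32080) was at 20.8, 64.4 and 118 FPKM in EsANAC029-OE and 202, 189 and 216 FPKM in Col-0 (log2 fold change −1.88, SE 0.592, limma adjusted p = 0.103). BASS6 (AT4G22840) was at 9.71, 5.52 and 5.05 FPKM in EsANAC029-OE and 2.83, 4.25 and 3.25 FPKM in Col-0 (log2 fold change 0.77, SE 0.273, limma adjusted p = 0.131). Each EsANAC029-OE library lay below Col-0 for PLGG1 and above it for BASS6, the scarcest tested member. The ratio of PLGG1 to BASS6 was 2.14, 11.7 and 23.3 in EsANAC029-OE and 71.5, 44.6 and 66.5 in Col-0. GOX1 and GOX2, neighbours on chromosome 3 with 90.9% identity in coding sequence, averaged 304 ± 149 and 219 ± 98.2 FPKM in EsANAC029-OE and 664 ± 44.9 and 452 ± 30.4 FPKM in Col-0 (mean ± SD, n = 3 each). The split of reads between such near copies is uncertain, and their sum was at 321, 450 and 798 FPKM in EsANAC029-OE and 1196, 1067 and 1083 FPKM in Col-0 (log2 fold change −1.19, limma adjusted p = 0.121).

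Glyoxylate is aminated to glycine by GGT1 and GGT2 (glutamate:glyoxylate aminotransferases) and AGT1 (serine:glyoxylate aminotransferase). AGT1 was at 210, 248 and 454 FPKM in EsANAC029-OE and 832, 716 and 677 FPKM in Col-0 (log2 fold change −1.36, SE 0.358, limma adjusted p = 0.0695). GGT1, the abundant form, was at 556, 400.4 and 655 FPKM in EsANAC029-OE and 874, 909 and 793 FPKM in Col-0 (log2 fold change −0.70, limma adjusted p = 0.199). GGT2 was at 30.1, 13.5 and 15.9 FPKM in EsANAC029-OE and 15.3, 19.1 and 16.3 FPKM in Col-0 (log2 fold change 0.14, 95% interval −0.59 to 0.88, limma adjusted p = 0.789). In the GGT genes replicate 1 was not the lowest EsANAC029-OE library, unlike in the 27 members above, and GGT2 was highest there. In the fit, GGT2 and BASS6 were the only tested members not lower in EsANAC029-OE. They were also the tested members with the lowest Col-0 levels, at 16.9 ± 1.96 and 3.44 ± 0.726 FPKM. Without EsANAC029-OE replicate 1 the log2 fold change of GGT2 was −0.185.

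In mitochondria, the glycine decarboxylase complex, made of P, T, H and L proteins, and SHM1 (serine hydroxymethyltransferase) turn glycine into serine. SHM1 (AT4G37930, chromosome 4, 17831731 to 17835017), the most abundant member of either pathway in Col-0, was at 307, 453 and 771 FPKM in EsANAC029-OE and 1570, 1639 and 1568 FPKM in Col-0 (log2 fold change −1.74, SE 0.416, limma adjusted p = 0.0567). The T protein gene GLDT (AT1G11860) was at 39.2, 260 and 418 FPKM in EsANAC029-OE and 666, 552 and 617 FPKM in Col-0 (log2 fold change −1.90, SE 0.848, limma adjusted p = 0.204). The H protein gene GDCH (AT2G35370) was at 52.9, 276 and 445 FPKM in EsANAC029-OE and 619, 641 and 582 FPKM in Col-0 (log2 fold change −1.71, SE 0.764, limma adjusted p = 0.204). In replicate 1 the differences of these genes from the Col-0 mean were −3.93 and −3.51 on the log2 scale, the lowest of photorespiration. The P protein gene GLDP1 was at 87.6, 122 and 278 FPKM in EsANAC029-OE and 445, 373 and 430 FPKM in Col-0 (limma adjusted p = 0.0851), and GLDP2 was at 41.3, 42.0 and 66.6 FPKM in EsANAC029-OE and 92.7, 84.0 and 85.3 FPKM in Col-0 (limma adjusted p = 0.0775). The GLDT to GLDP1 ratio was 0.447, 2.13 and 1.50 in EsANAC029-OE and 1.50, 1.48 and 1.43 in Col-0, and that of GDCH to GLDP1 was 0.603, 2.26 and 1.60 in EsANAC029-OE and 1.39, 1.72 and 1.36 in Col-0. In EsANAC029-OE, T and H were thus scarce relative to P in replicate 1 and abundant relative to P in replicate 2. GLDP1 over GLDP2 was 2.12, 2.91 and 4.18 in EsANAC029-OE and 4.80, 4.44 and 5.04 in Col-0, without overlap (exact permutation p = 0.1).

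Serine is deaminated to hydroxypyruvate by AGT1, which HPR1 (hydroxypyruvate reductase of peroxisomes) reduces to glycerate, and GLYK (glycerate kinase of the chloroplast) phosphorylates glycerate to phosphoglycerate. HPR1 was at 58.9, 151 and 250 FPKM in EsANAC029-OE and 412, 416 and 396 FPKM in Col-0 (limma adjusted p = 0.104), and GLYK at 32.9, 49.6 and 76.3 FPKM in EsANAC029-OE and 132, 120 and 132 FPKM in Col-0 (limma adjusted p = 0.0539). Ammonia released from glycine is reassimilated in the chloroplast by glutamine synthetase and GLU1 (ferredoxin-dependent glutamate synthase), with DiT1 bringing in 2-oxoglutarate and DiT2.1 releasing glutamate in exchange for malate. GLU1 (AT5G04140) was at 73.9, 87.3 and 161 FPKM in EsANAC029-OE and 275, 269.7 and 261 FPKM in Col-0 (log2 fold change −1.40, SE 0.319, limma adjusted p = 0.0512). DiT1 (AT5G12860, chromosome 5, 4059579 to 4062289) was at 67.4, 67.9 and 97.4 FPKM in EsANAC029-OE and 172, 136 and 205 FPKM in Col-0, and it fell with a log2 fold change of −1.13 (SE 0.248, 95% interval −1.73 to −0.53, limma adjusted p = 0.0460). Every EsANAC029-OE library lay below every Col-0 library. The call was lost in 8 of 12 alternative fits, where adjusted p ran up to 0.183, among them every fit without a Col-0 library and the fit without EsANAC029-OE replicate 2. DiT2.1 was at 37.7, 47.5 and 57.4 FPKM in EsANAC029-OE and 88.5, 75.7 and 101 FPKM in Col-0 (log2 fold change −0.89, limma adjusted p = 0.0600). The nitrogen-related members GLU1, DiT1 and DiT2.1 lay below Col-0 in every EsANAC029-OE library.

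**Figure D4:**
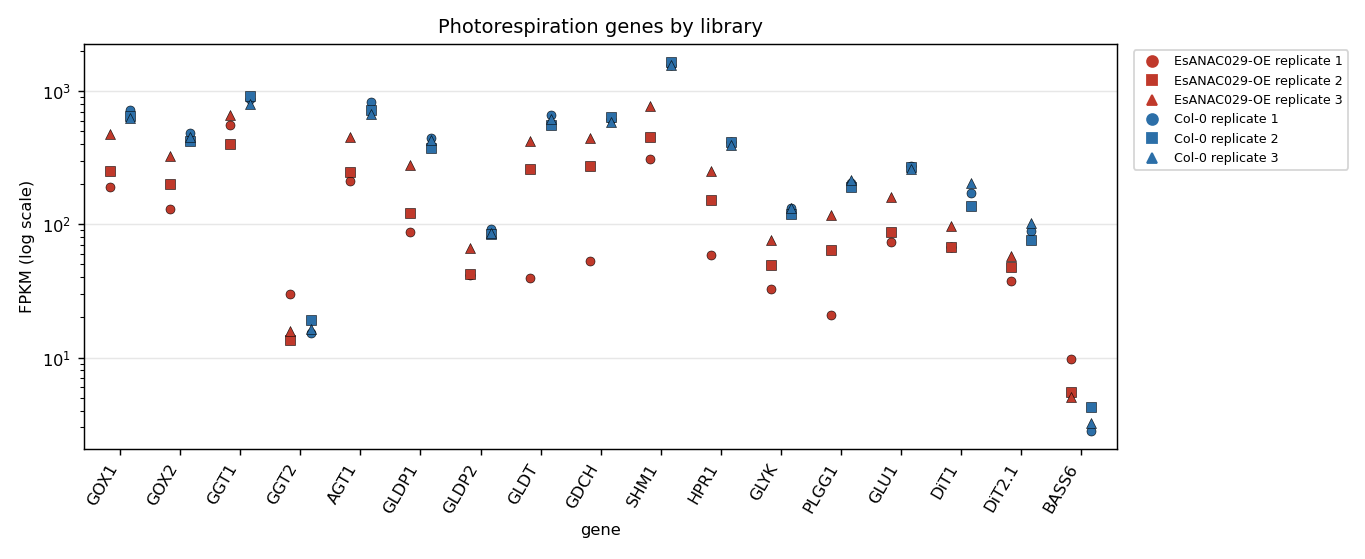
Level of 17 photorespiration genes in FPKM on a log axis (PGLP1, near 0, is left out), with EsANAC029-OE in red at left and Col-0 in blue at right of each gene and a marker shape for each replicate number. In 15 genes every red point lies below every blue point, in GGT2 the groups overlap and in BASS6 the red points lie above.

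Other genes of the pathways, from lists drawn up by enzyme function, were lower, higher or near Col-0. The median log2 fold change of 8 further Calvin-Benson genes, counting the exporter of the cycle's product, was −0.72. Among them 1 was called lower and none higher, against 3.58% and 4.31% of all tested genes. That gene was TPT, the triose phosphate translocator (AT5G46110), at 231, 285 and 478 FPKM in EsANAC029-OE and 881, 909 and 963 FPKM in Col-0 (log2 fold change −1.53, limma adjusted p = 0.0492), and it was called in 2 of 12 alternative fits. FBA3, a chloroplast aldolase less abundant than FBA1 and FBA2 in Col-0, lay above Col-0 in every EsANAC029-OE library, at 77.9, 67.3 and 44.7 FPKM against 33.1, 34.6 and 33.8 FPKM in Col-0 (log2 fold change 0.85, limma adjusted p = 0.0757). The ratio of FBA2 to FBA3 was 3.16, 7.80 and 18.1 in EsANAC029-OE and 47.7, 38.6 and 46.6 in Col-0. PGK2, the other chloroplast kinase, was at 107, 122 and 182 FPKM in EsANAC029-OE and 205, 201 and 221 FPKM in Col-0 (limma adjusted p = 0.160).

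Of 20 tested further genes of photorespiration 3 were called lower and none higher, against 3.58% and 4.31% of all tested genes. The list's median log2 fold change was −0.71. CAT2, the catalase that removes hydrogen peroxide made by glycolate oxidase (AT4G35090, chromosome 4, 16700312 to 16703504), was at 35.4, 12.1 and 13.7 FPKM in EsANAC029-OE and 83.5, 88.1 and 90.3 FPKM in Col-0, and it fell with a log2 fold change of −2.20 (SE 0.395, limma adjusted p = 0.0306). CAT2 was highest in replicate 1 among the EsANAC029-OE libraries, as were GGT2 and BASS6 among the members, and it was called in 5 of 12 alternative fits (adjusted p = 0.00391 to 0.133). The CAT2 call was lost without any 1 Col-0 library and without EsANAC029-OE replicate 2 or 3. The ratio of GOX1 plus GOX2 to CAT2 was 9.05, 37.2 and 58.0 in EsANAC029-OE and 14.3, 12.1 and 12.0 in Col-0, with overlap (exact permutation p = 0.4). HPR2, the cytosolic hydroxypyruvate reductase (log2 fold change −0.68, limma adjusted p = 0.0456), and AGT3, a homolog of alanine:glyoxylate aminotransferases (log2 fold change −1.64, limma adjusted p = 0.0311), also fell. HPR2 was called in 4 of 12 alternative fits (adjusted p up to 0.201) and AGT3 in 7 of 12 (up to 0.129), and both calls were lost without any 1 Col-0 library. GLDH3, an H protein gene 87.6% identical to GDCH in coding sequence, was at 20.01, 292 and 442 FPKM in EsANAC029-OE and 600.2, 523 and 599 FPKM in Col-0, with replicate 1 far under the others as in GDCH. For SHM2 and GLU2, genes of the same activity as SHM1 and GLU1 and scarce in Col-0, the groups overlapped: SHM2 was at 12.2, 17.7 and 13.2 FPKM in EsANAC029-OE and 14.7, 12.0 and 14.5 FPKM in Col-0, and GLU2 at 25.8, 13.1 and 5.55 FPKM in EsANAC029-OE and 5.94, 5.71 and 4.17 FPKM in Col-0. The ratio of SHM1 to SHM2 was 25.3, 25.6 and 58.5 in EsANAC029-OE and 107, 137 and 108 in Col-0.

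Plastid thioredoxins and their reductases switch on several Calvin-Benson enzymes in light. All 9 genes of this list had every EsANAC029-OE library below every Col-0 library, against 20.3% of all tested genes. Of the 9, 4 were called lower, against 3.58% of all tested genes, and none higher, and the median was −1.18. TRXF1, a thioredoxin f (AT3G02730), was at 65.5, 114 and 154 FPKM in EsANAC029-OE and 343, 357 and 356 FPKM in Col-0 and fell with a log2 fold change of −1.74 (SE 0.334, limma adjusted p = 0.0347). TRXM2, a thioredoxin m, and FTRA1 and FTRA2, the variable subunits of ferredoxin-thioredoxin reductase, fell with log2 fold changes of −1.18, −0.79 and −1.69 (limma adjusted p = 0.0443, 0.0390 and 0.0410). TRXF1, TRXM2 and FTRA2 were called in 4 of 12 alternative fits and FTRA1 in 5 of 12. Each of these calls was lost without any 1 Col-0 library and without EsANAC029-OE replicate 2. All were also lost with a replicate block and with library size alone.

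Cytosolic isoforms of the same enzymes lay on both sides of Col-0. Their median over 9 genes was 0.01. None was called lower and 1 was called higher, against 3.58% and 4.31% of all tested genes. GAPC1, a cytosolic GAPDH of glycolysis, was at 445, 257 and 215 FPKM in EsANAC029-OE and 158, 173 and 209 FPKM in Col-0 (log2 fold change 0.70, limma adjusted p = 0.217), and GAPC2 was at 324, 371 and 295 FPKM in EsANAC029-OE and 274, 299 and 288 FPKM in Col-0 (limma adjusted p = 0.587). The ratio of the 3 chloroplast GAPDH genes to these cytosolic genes was 0.649, 2.43 and 5.21 in EsANAC029-OE and 8.75, 7.08 and 8.10 in Col-0. In replicate 1 cytosolic GAPDH transcripts were thus more abundant than chloroplast ones. CYFBP, the cytosolic fructose-1,6-bisphosphatase of sucrose synthesis, lay below Col-0 in every EsANAC029-OE library, at 42.8, 83.8 and 151 FPKM against 189, 169.6 and 171 FPKM in Col-0 (log2 fold change −1.10, limma adjusted p = 0.168). SHM5, a cytosolic serine hydroxymethyltransferase (AT4G13890), was the called gene, at 14.2, 5.43 and 2.84 FPKM in EsANAC029-OE and 0.0598, 0.160 and 0 FPKM in Col-0 (log2 fold change 2.75, SE 0.490, limma adjusted p = 0.0305). It entered the test only through the EsANAC029-OE libraries, where it is high, so it had to differ and its call supports nothing about the list. The call was lost in 5 of the 9 alternative fits that tested it, with adjusted p up to 0.131, and the log2 fold change was 5.26 with a pseudocount of 0.1 and 6.66 with limma-voom. Without any 1 EsANAC029-OE library it was not tested, since it fell below the filter. In all, 21 ratios between related genes were formed after the values had been seen: 4 were higher and 8 lower in EsANAC029-OE without overlap, 9 overlapped, and the Benjamini-Hochberg adjusted exact permutation p was 0.175 at best.

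**Figure D5:**
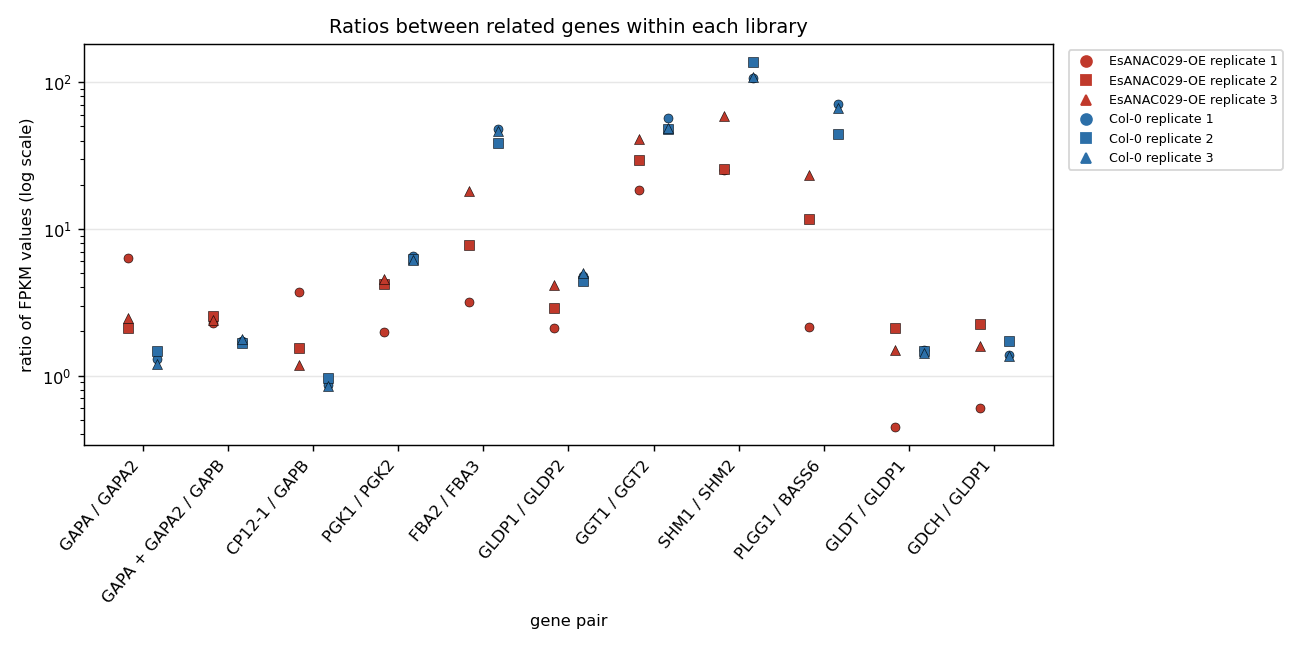
Ratio of FPKM values between related genes within each library, on a log axis, with EsANAC029-OE in red at left and Col-0 in blue at right of each pair and a marker shape for each replicate number. The pairs are a selection from 21 ratios, of which 4 were higher and 8 lower in EsANAC029-OE without overlap and 9 overlapped. Among the pairs shown, the groups are apart in the first 9 and overlap for GLDT and GDCH over GLDP1. In these last pairs EsANAC029-OE replicate 1 is lowest (0.447 and 0.603) and replicate 2 highest (2.13 and 2.26).

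The 250 bases before the annotated start were read for all 31 members and for 27418 protein-coding genes from the RefSeq TAIR10.1 genome, whose gene coordinates match those of the table at 32532 of 32548 shared loci. The G-box CACGTG, which bZIP and bHLH factors of light signalling bind and which reads the same on both strands, stood in 5 of 31 member promoters (16.1%) and in 7.54% of the promoters of 16623 tested protein-coding genes. The members with a G-box were PRK, HCEF1, GGT1, GGT2 and GLDP1. Counted on both strands, the I-box GATAAG stood in 3 of 31 (9.68%) against 12.5% of tested genes, the GT1 box GGTTAA in 3 (9.68%) against 15.2%, CATGTG, a NAC recognition site, in 2 (6.45%) against 10.9%, CCAATC, a site of GLK factors, in 2 (6.45%) against 10.7%, and TATAAA in 9 (29.0%) against 45.4%. In 1 member promoter some of these motifs overlap. The following promoters are shown because they hold a G-box in members with different values: HCEF1 and GLDP1 lay below Col-0 in every EsANAC029-OE library, and the GGT pair shares the motif while only GGT1 did so. Capitals mark the first 5 of these motifs (TATAAA is not marked), each sequence is given 5′ to 3′ on the strand of its gene, and a match is a description of letters, not of binding. The regions are chr3:20016587-20016836 (plus strand), chr4:15931423-15931672 (minus strand), chr1:8272022-8272271 (minus strand) and chr1:26612109-26612358 (plus strand).
HCEF1: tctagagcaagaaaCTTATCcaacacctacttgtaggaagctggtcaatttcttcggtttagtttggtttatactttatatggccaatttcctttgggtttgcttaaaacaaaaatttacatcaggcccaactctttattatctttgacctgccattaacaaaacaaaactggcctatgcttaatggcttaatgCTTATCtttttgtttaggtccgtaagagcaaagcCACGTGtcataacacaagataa
GLDP1: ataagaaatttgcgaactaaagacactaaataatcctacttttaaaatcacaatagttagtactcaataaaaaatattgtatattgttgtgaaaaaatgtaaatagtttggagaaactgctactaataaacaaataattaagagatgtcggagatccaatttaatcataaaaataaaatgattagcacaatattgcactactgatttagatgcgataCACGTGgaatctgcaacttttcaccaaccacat
GGT1: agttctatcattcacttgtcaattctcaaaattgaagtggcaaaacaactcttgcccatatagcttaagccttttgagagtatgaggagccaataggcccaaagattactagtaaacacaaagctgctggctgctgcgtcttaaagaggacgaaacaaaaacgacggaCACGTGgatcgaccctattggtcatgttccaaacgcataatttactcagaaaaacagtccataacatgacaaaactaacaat
GGT2: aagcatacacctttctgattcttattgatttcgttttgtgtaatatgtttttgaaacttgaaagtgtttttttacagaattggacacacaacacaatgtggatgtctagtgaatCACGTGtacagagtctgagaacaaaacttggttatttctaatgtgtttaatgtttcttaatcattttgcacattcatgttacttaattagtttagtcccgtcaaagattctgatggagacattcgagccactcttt
Counted from the annotated start, the G-box lies at position −22 in HCEF1, −33 in GLDP1, −82 in GGT1 and −136 in GGT2.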

How the data were processed

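RNA of 3 EsANAC029-OE and 3 Col-0 samples was sequenced as 150-base read pairs, per the labels' protocols. The submitters' processing notes name CASAVA 1.8, HISAT2 and edgeR with TAIR10 without roles; the read counter and strand setting are not stated. The values deposited by the authors were read as FPKM, a unit inferred from them, since each value times its gene length (a column of other unit, bases, in the deposited table) is a whole multiple of a step per library for 100% of values (tolerance 1e-06). Recovered read totals ran from 19608819 to 21715274, and the authors' scaling beyond library size was 1.06, 1.25 and 1.15 for EsANAC029-OE and 0.920, 0.883 and 0.872 for Col-0. A gene was tested if 3 or more libraries had at least 1 FPKM (17221 of 32962 genes), and log2(FPKM + 1) was fitted on genotype with limma 3.58.1 in R 4.3.3 (trended variance, two-sided, Benjamini-Hochberg over all tested genes); fold changes on this scale understate changes of low genes. The fit was tested on simulated data whose spread was taken from the Col-0 libraries alone. That test does not cover the spread among the EsANAC029-OE libraries. Ratios were compared by exact permutation tests (scipy 1.17.1, two-sided). The members and gene lists were chosen with earlier results of these data known. Named genes are all 31 members, called genes of the other lists (up to 4 by smallest p each), and copies, complex partners and cytosolic isoforms of named members; FBA3, PGK2, SHM2, GLU2 and per-library values of the remaining members were chosen after values were seen. Alternatives covered pseudocount, filter, scaling, replicate block, limma-voom, left-out libraries and summed copies.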

Additional observations from a re-analysis of the deposited data

How the results depend on the processing

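The direction of all 30 tested members was kept under every alternative, except GGT2, which had −0.185 without EsANAC029-OE replicate 1. The Calvin-Benson median ran from −2.05 to −1.04 and the photorespiration median from −1.64 to −0.94 over all alternatives. With library size alone 2749 genes were called higher and 377 lower, no photorespiration member lower and 1 higher (BASS6), and of the other lists 2 genes lower and 3 higher. With no filter 460 genes were called higher and 359 lower, 0 photorespiration members, and of the other lists 4 genes lower and 1 higher. With limma-voom on recovered reads 455 were called higher and 366 lower, 0 photorespiration members, and of the other lists 2 lower and 0 higher. The labels do not say whether the replicate numbers pair the libraries. Deviations from the group means correlated at −0.199, −0.0531 and −0.105 for the same numbers, and no library correlated best with its own number. Deviations within a group of 3 libraries are tied to each other, so these values cannot show whether a pairing exists. With a replicate block 13 genes were called higher and 3 lower, 0 photorespiration members, and 0 of the other lists in either direction. Leaving out 1 library gave 48 to 1151 genes higher, 11 to 1597 lower, 0 to 7 Calvin-Benson members lower, 0 to 8 photorespiration members lower, and of the other lists 0 to 14 lower and 0 to 1 higher. The sign of the log2 fold change reversed for some genes: PGLP2 at 0.0092, AGT2 at 0.258, FBA6 at 0.0892 and SHM4 at 0.178 with library size alone. Leaving out 1 library, GGT2 ran from −0.185 to 0.364, AGT2 from −0.175 to 0.0815, GLDH2 from −0.344 to 0.942, SHM2 from −0.105 to 0.148, PMDH1 from −0.166 to 0.190, PGK3 from −0.0955 to 0.214 and SHM4 from −0.538 to 0.117. GLDH2, at 0.397 in the main fit, reversed without EsANAC029-OE replicate 2, its highest library at 34.1 FPKM. The cause of these shifts was not tested. With 3 libraries a group, exact tests of single ratios cannot go below p = 0.1.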
